A study of Mus musculus with 7 samples.

Results

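The 8 genes described here, Atoh1, Barhl1, Pax6, Meis1, Meis2, Neurod1, Neurod2 and Insm1, encode transcription factors of the cerebellar granule cell lineage. A peak was assigned to a gene when its centre fell inside the annotated gene or at most 50 kb away, in mm10 (GRCm38) with GENCODE M21 genes. By this rule the genes hold 77 of 31400 H3K27ac peaks and 7 of 1946 Chd7 peaks of WT granule neuron progenitors (GNPs), and 1 of 96 Chd7 peaks of Chd7-deficient GNPs. In cultured cerebellar granule neurons (CGNs) they hold 27 of 17030 Top2b peaks from WT cells and 33 of 21505 from Chd7-deficient cells. The 8 genes are among 21938 protein-coding genes on chromosomes 1 to 19, X and Y.

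Granule cells arise from the rhombic lip, where the bHLH factor Atoh1 specifies them and keeps their progenitors dividing in the external granule layer. The homeobox factors Barhl1 and Pax6 mark the same progenitors and their migration, and the TALE homeobox proteins Meis1 and Meis2 act as DNA-binding partners of other homeobox factors. Neurod1 and Neurod2 are bHLH factors of postmitotic neurons needed for granule cell differentiation and survival, and the zinc finger protein Insm1 acts in neuronal progenitors as they leave the cell cycle. H3K27ac is a histone mark of active promoters and enhancers. Chd7 is an ATP-dependent nucleosome remodeller that is bound mainly at enhancers, and Top2b is the type II DNA topoisomerase of postmitotic neurons.

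ChIP-seq recovers the DNA bound to a protein or a modified histone, and a peak is a place where the recovered fragments pile up over the background. GNPs were isolated by Percoll gradient from P7 mouse cerebella, and CGNs were the same cells after 48 h of culture without mitogen. WT mice carry the floxed Chd7 alleles without Cre (Chd7 f/f), and Chd7-deficient mice are Atoh1-Cre::Chd7 f/f. The Atoh1-Cre transgene is itself driven by an enhancer taken from the 3′ side of Atoh1, and per the study Chd7 protein remains in the posterior lobe of these mice. Each condition is 1 library, so no difference below could be set against the variation between animals, no test between genotypes was possible, and intervals on counts and shares cover counting error only.

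For each peak, the tables of GNPs hold the pileup (fragments overlapping the summit), the −log10 q-value and the fold enrichment, which sets the summit against its local background. The Top2b tables give positions only. Read totals are unknown, and the lowest local background, a floor set by library size, was 3.81 fragments for H3K27ac, 2.25 in Chd7-deficient GNPs and 2.6 for Chd7 in WT. The label of the H3K27ac library was checked against marker genes. An H3K27ac peak covered an annotated start of 5 of 8 GNP markers, 2 of 6 Purkinje cell markers, 2 of 5 markers of inhibitory interneurons, 2 of 5 of Bergmann glia and astrocytes, 1 of 4 of oligodendrocytes, and none of 4 microglial, 3 endothelial and 3 unipolar brush cell and nuclear markers. Over all protein-coding genes the share was 40.7%. The GNP markers include Atoh1, Barhl1 and Pax6 from the genes described here, and Barhl1 and Pax6 are among the 5. Calb1, Ptf1a, Aqp4, Gdf10, Hopx, Olig2, Cdh5 and Tbr1 had no H3K27ac peak in or within 50 kb, whereas among the progenitor markers Atoh1, Gli1 and Ccnd1 had peaks in that window but none across a start. How far other cell types contribute to the peaks described here was not tested.

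The Chd7 peaks at the 8 genes are shown first by sequence. Each line is the 200 bp of GRCm38 centred on the summit, plus strand. Capitals mark E-boxes (CANNTG, the hexamer read by bHLH factors such as Atoh1 and Neurod1) and the Meis core TGACAG on either strand, because these letters are read by proteins that the genes themselves encode.

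Barhl1 WT Chd7, chr2:28867533-28867732: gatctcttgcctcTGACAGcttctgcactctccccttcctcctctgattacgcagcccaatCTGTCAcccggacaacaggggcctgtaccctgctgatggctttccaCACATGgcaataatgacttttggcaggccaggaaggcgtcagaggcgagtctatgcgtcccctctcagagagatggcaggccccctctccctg

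Barhl1 WT Chd7, chr2:28861054-28861253: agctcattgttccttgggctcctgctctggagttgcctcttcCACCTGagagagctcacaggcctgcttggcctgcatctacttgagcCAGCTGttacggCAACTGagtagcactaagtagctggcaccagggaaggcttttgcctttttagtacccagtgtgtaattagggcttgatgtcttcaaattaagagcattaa

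Neurod1 WT Chd7, chr2:79405976-79406175: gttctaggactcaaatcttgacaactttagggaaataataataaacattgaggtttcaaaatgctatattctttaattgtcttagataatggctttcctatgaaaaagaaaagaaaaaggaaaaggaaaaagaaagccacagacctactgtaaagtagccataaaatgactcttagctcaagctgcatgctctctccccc

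Neurod1 WT Chd7, chr2:79454487-79454686: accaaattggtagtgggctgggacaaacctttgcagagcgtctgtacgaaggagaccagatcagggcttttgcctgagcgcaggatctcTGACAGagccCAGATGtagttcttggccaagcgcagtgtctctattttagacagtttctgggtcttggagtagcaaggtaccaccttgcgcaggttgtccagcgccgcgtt

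Pax6 WT Chd7, chr2:105660476-105660675: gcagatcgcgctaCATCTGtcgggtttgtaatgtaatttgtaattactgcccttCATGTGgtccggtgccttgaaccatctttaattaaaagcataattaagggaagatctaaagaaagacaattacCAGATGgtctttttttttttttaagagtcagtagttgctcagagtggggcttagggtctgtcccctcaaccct

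Meis1 WT Chd7, chr11:19020704-19020903: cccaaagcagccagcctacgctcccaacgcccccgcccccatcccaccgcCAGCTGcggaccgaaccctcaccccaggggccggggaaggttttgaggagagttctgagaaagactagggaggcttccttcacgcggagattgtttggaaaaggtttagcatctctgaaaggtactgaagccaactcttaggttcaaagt

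Insm1 WT Chd7, chr2:146256381-146256580: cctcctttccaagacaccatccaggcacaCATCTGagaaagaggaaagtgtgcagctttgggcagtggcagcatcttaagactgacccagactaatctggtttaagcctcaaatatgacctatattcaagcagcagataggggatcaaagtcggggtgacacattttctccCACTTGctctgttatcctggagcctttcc

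Atoh1 Chd7-deficient Chd7, chr6:64734356-64734555: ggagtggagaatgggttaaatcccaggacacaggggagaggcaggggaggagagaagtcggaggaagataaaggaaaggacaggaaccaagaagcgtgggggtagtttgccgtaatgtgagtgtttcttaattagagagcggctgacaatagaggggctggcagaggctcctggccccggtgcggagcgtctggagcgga

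Of the 7 WT windows 6 held an E-box, against 65.5% of all 1902 WT Chd7 windows on chromosomes 1 to 19, X and Y and 60.1% of H3K27ac windows of the same length. The hexamer CAGATG was in 3 of the 7 windows (23.6% of all WT Chd7 windows), CAGCTG in 2 (19.4%) and CAGGTG in 1 (12.8%). The Meis core TGACAG was in 2 windows (16.8%), the stronger Barhl1 window with 2 matches and the Neurod1 window inside the gene with 1. The NFI half-site TTGGC was in 4 windows (46.5%), and the Gli motif GACCACCCA in none (0.315%). Letters on both strands were searched, and the 3 named hexamers are counted among the E-boxes too. The window at Atoh1, from Chd7-deficient GNPs, held none of these motifs, nor did the Neurod1 window at 50.7 kb. With 7 windows these shares are descriptions, and a match in letters is not a bound site.

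H3K27ac peaks were numerous at 7 of the 8 genes and missing at Meis2. Neurod1 had 15 peaks, Pax6 14, Barhl1 and Meis1 11 each, Insm1 10, Atoh1 9 and Neurod2 7. Of all protein-coding genes 73.5% had at least 1 H3K27ac peak by the same rule, with a median of 2, against a median of 10.5 at the 8 genes. Per length of window the genes held 6.45 peaks per 100 kb and all windows 2.17. Neurod1 came 60th of 21938 genes by peaks per 100 kb, while Meis1, whose gene is 139.2 kb long, came 3618th.

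**Figure D1:**
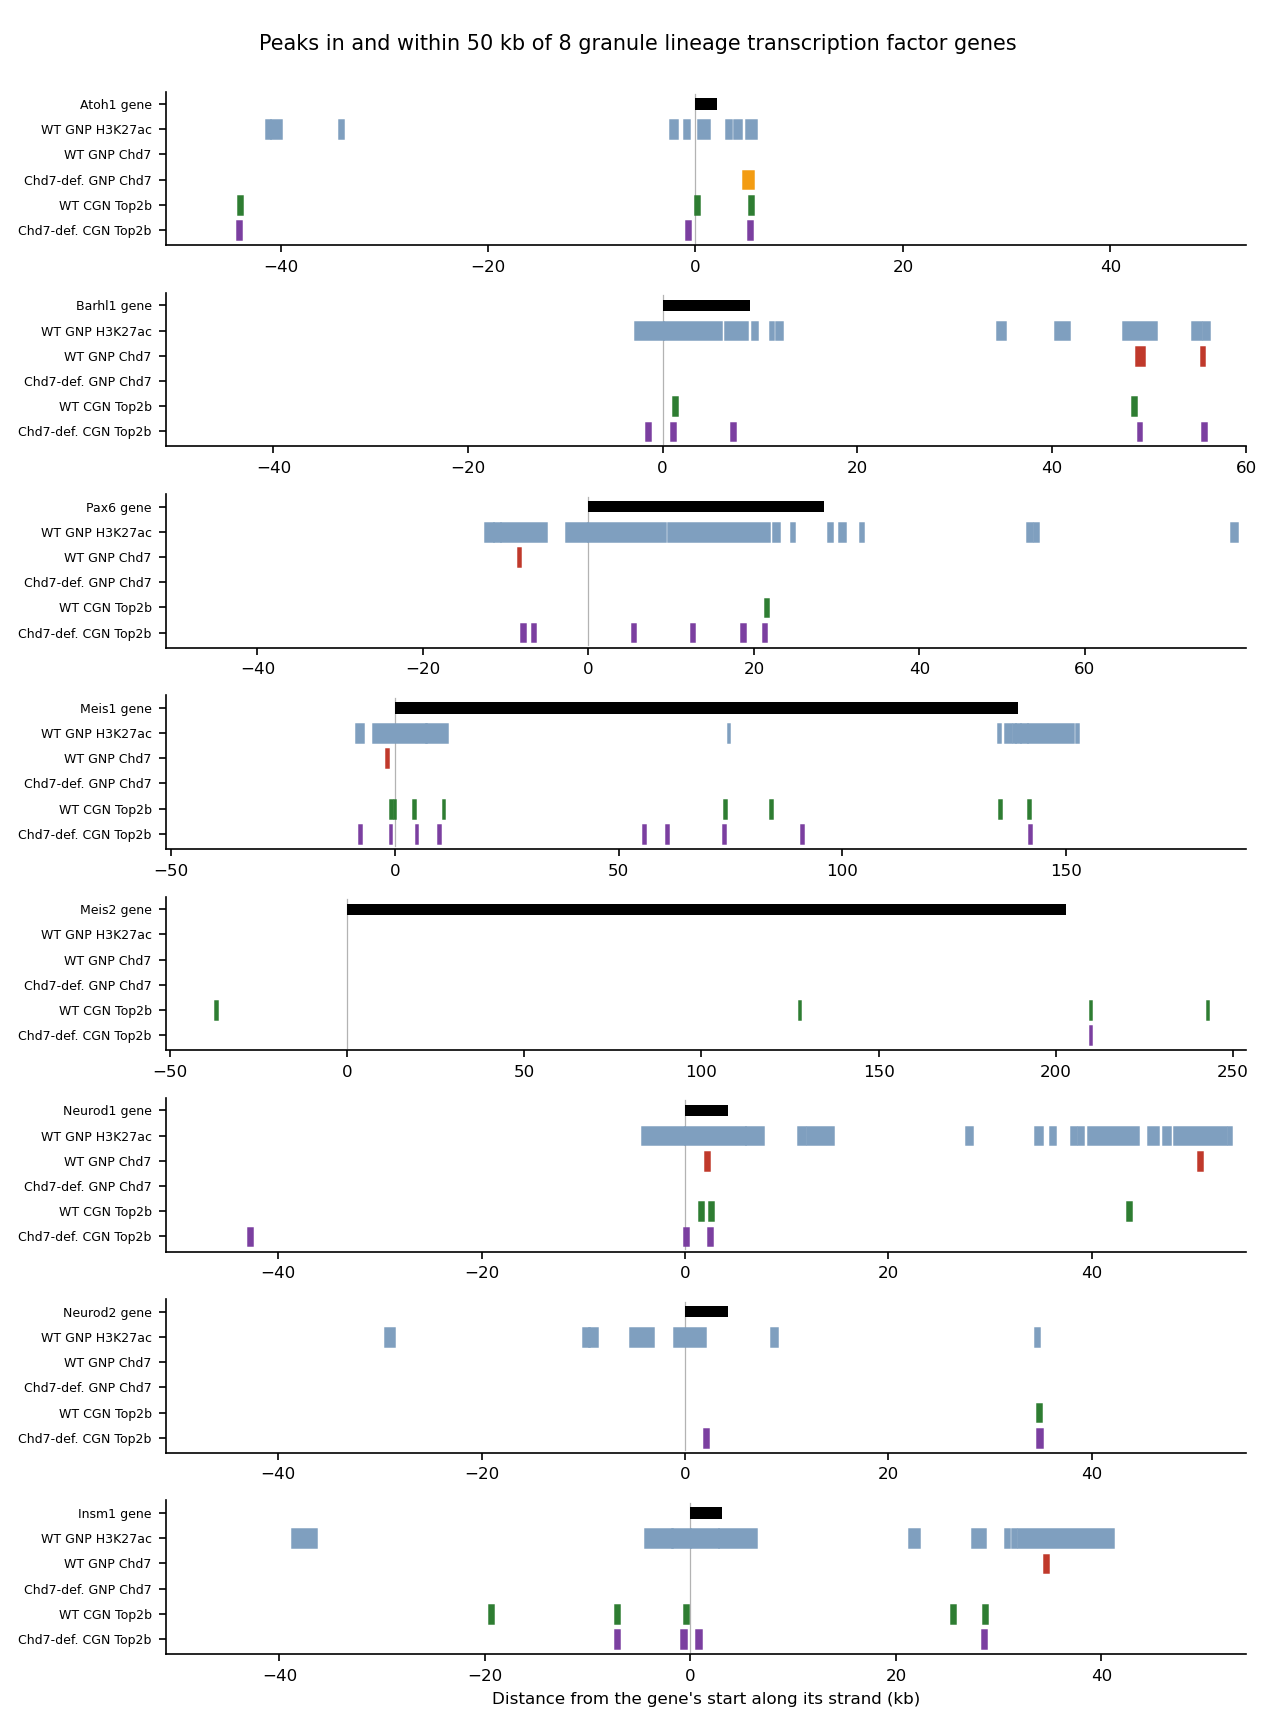
Peaks of the 5 libraries along the 8 genes, with the distance from each gene's start along its strand in kb on the horizontal axis, which differs between panels, and 1 row per library. Black bars are the genes and coloured blocks the peaks, drawn with a thin outline so that narrow peaks stay visible. H3K27ac blocks run across the starts of Barhl1, Pax6, Meis1, Neurod1 and Neurod2, the Meis2 panel holds Top2b peaks alone, and the Chd7 peak of Chd7-deficient GNPs stands at Atoh1.

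The acetylated blocks at the starts were wide. A peak covered an annotated start of 5 of the 8 genes, Barhl1, Pax6, Meis1, Neurod1 and Neurod2, against 40.7% of all protein-coding genes. At Meis1 the peak over the start was 11761 bp wide, the 15th widest of the library, with a fold enrichment of 33.8, the 92nd highest. At Pax6 it was 9334 bp (29th widest, fold enrichment 19.6), and a second block of 12221 bp lay in the gene body at 9.90. The summit of the second block was 19 bp from another annotated start of Pax6. Neurod1 had a block of 5975 bp over the gene at 20.9, Neurod2 a block of 2954 bp at 21.8 and Barhl1 a block of 2886 bp at 13.6. Barhl1 also had a block of 5901 bp at 9.13, whose summit was 99 bp from another annotated start of the gene. The median width over the library was 646 bp. At Insm1 no peak crossed the start base, but peaks with fold enrichments of 24.7 and 18.0 stood on either side of it, at -0.38 and 1.04 kb.

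Part of the strongest acetylation lay far from the starts. Neurod1's highest peak, 4917 bp wide with a fold enrichment of 26, lay 42.3 kb from the start in an intron of Cerkl. This ceramide kinase-like gene is annotated across Neurod1 as well. At Meis1 a block of 10238 bp at 23.0 lay 147.19 kb from the start, beyond the 3′ end of the gene and in an intron of the non-coding gene 8430419K02Rik. Barhl1's highest peak (17.2) was 49.4 kb from its start in an intron of Ddx31, which encodes a DEAD-box helicase. Insm1 had a block of 9247 bp at 19.9 in an intron of Ralgapa2, 35.9 kb downstream. Of the 77 peaks 49 had the start of one of the 8 genes as the nearest protein-coding start, from all 14 at Pax6 and all 11 at Meis1 to 4 of 15 at Neurod1, where Cerkl was nearer to the other 11. These 11 include the block of 4163 bp at -0.48 kb, which lay within 1 kb of a start of both genes. An assignment of distal peaks to these genes rests on distance alone.

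The peaks at Atoh1 were low, and none was as wide as the blocks over the starts described above. Their widths ran from 410 to 1107 bp, on both sides of the library's median of 646 bp. The 9 Atoh1 peaks had fold enrichments from 2.82 to 5.22, median 3.55 against 4.35 over the library, with the highest at 3.99 kb. None lay above the upper quartile of the library (7.27), whereas 5 peaks each at Meis1 and Neurod1, 4 each at Barhl1, Pax6 and Insm1 and 2 at Neurod2 did, 24 of 77 in all. Of the 9 peaks 6 lay within 6 kb of the start. H3K27ac peaks covered 6.12% of the Atoh1 window, against 28.7% at Neurod1, 27.9% at Pax6, 24.5% at Insm1, 18.0% at Barhl1, 14.0% at Meis1, 7.95% at Neurod2 and a median of 1.35% over all genes.

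**Figure D2:**
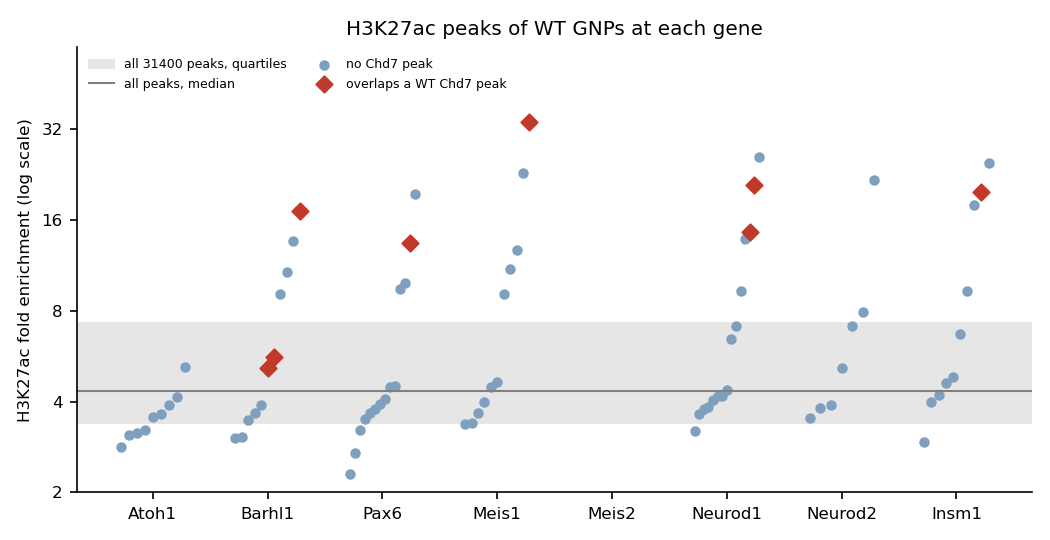
Fold enrichment (log scale) of each H3K27ac peak of WT GNPs by gene, sorted within a gene from low to high. Red diamonds are peaks that overlap a WT Chd7 peak, the grey band spans the quartiles of all 31400 peaks (3.41 to 7.27) and the line is their median (4.35). The Atoh1 points stay within or below the band, Meis2 has none, and 6 of the 8 diamonds lie above it.

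When neighbouring peaks were stitched into regions over the distance conventional for super-enhancers and ranked by width times pileup, 612 of 17539 regions lay past the point where the ranked curve turns steep. Such a region overlapped 6 of the 8 genes, against 4.18% of all protein-coding genes. Meis1 had the regions ranked 23 and 64, at its 5′ and its 3′ end. Pax6 ranked 24, with 11 peaks over 45.7 kb, Neurod1 72, Barhl1 162, Insm1 191 and Neurod2 284. The Atoh1 region, 6 peaks over 8.3 kb, ranked 3793. Without the H3K27ac peaks near annotated starts 2 of the genes kept such a region. The share of all protein-coding genes under that setting is not given here.

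WT Chd7 peaks were found at 5 of the 8 genes, 2 each at Barhl1 and Neurod1 and 1 each at Pax6, Meis1 and Insm1, and none at Atoh1, Meis2 or Neurod2. By the same rule 14.3% of all protein-coding genes had a Chd7 peak. Among genes as rich in H3K27ac as the 7 acetylated ones here, with at least 7 peaks, the share was 32.2%, and 5 of these 7 genes had one. Of the 5 genes with an acetylated start 4 had a Chd7 peak, against 22.1% of genes with an acetylated start. All 7 peaks overlapped H3K27ac, as did 77.9% of the library's Chd7 peaks.

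**Figure D3:**
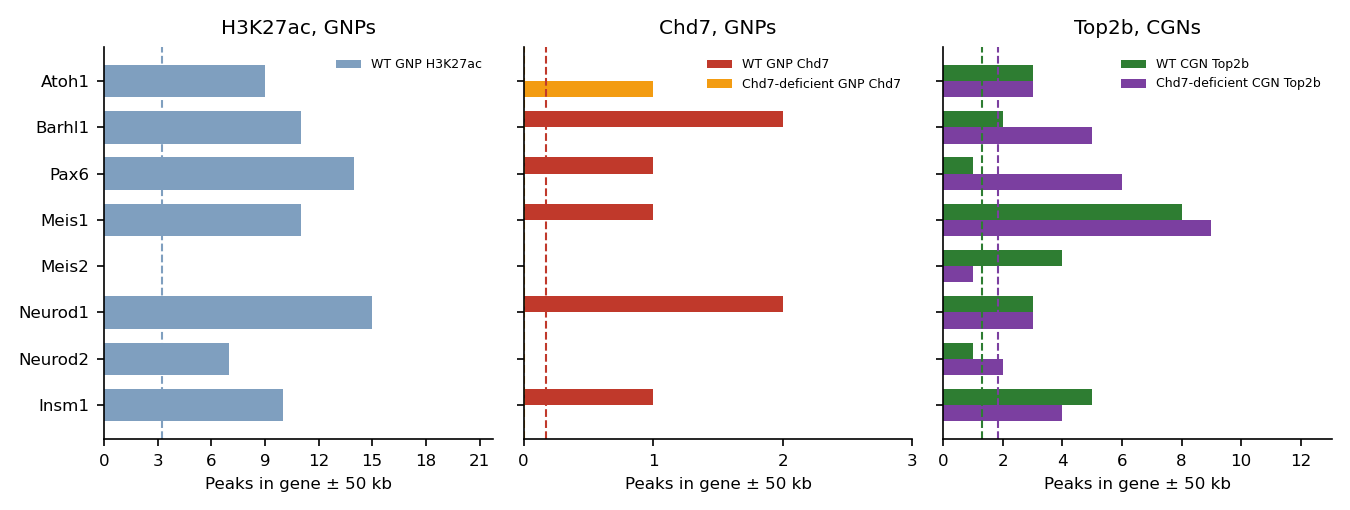
Number of peaks in or within 50 kb of each gene, for H3K27ac and Chd7 in GNPs and Top2b in CGNs, 1 library each. Dashed lines are the mean over all 21938 protein-coding genes (3.23 for H3K27ac, 0.171 for WT Chd7, 1.32 and 1.84 for Top2b in WT and Chd7-deficient CGNs). The bars for H3K27ac pass the line at every gene but Meis2, and Pax6 and Barhl1 have more Top2b peaks in Chd7-deficient CGNs, Meis2 fewer.

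The strongest WT Chd7 peak at these genes was in the distal Barhl1 block. At chr2:28867222-28867985, in a Ddx31 intron 49.0 kb downstream of the Barhl1 start, 39 fragments overlapped the summit (95% Poisson interval 27.7 to 53.3) over a background of 4.20. Its fold enrichment of 7.70 was the 17th of 1946, and its −log10 q-value was 19.3. This is the window printed above with 2 Meis cores, and it lay in the H3K27ac peak that is Barhl1's highest. A second peak 55.5 kb downstream, at chr2:28861035-28861344, had 24 fragments (15.4 to 35.7) and a fold enrichment of 3.83, and it bridged a pair of neighbouring H3K27ac peaks.

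At Neurod1, 1 peak lay inside the gene and 1 far downstream. The distal peak, chr2:79405866-79406261 in a Cerkl intron 50.7 kb from the start, had 25 fragments (16.2 to 36.9) and a fold enrichment of 5.22, within the first 11.7% of the library. The other, chr2:79454388-79454771 in the coding exon of Neurod1, had 19 fragments (11.4 to 29.7) and a fold enrichment of 3.85. The acetylated block with the highest fold enrichment at this gene, at 42.3 kb, held no Chd7 peak.

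The peak at Pax6 was in the middle of the library by fold enrichment, at rank 997 of 1946, and those at Insm1 and Meis1 were lower, at ranks 1659 and 1803. The Pax6 peak, chr2:105660330-105660637, lay 8.3 kb upstream in an exon of the antisense non-coding gene Paupar, with 20 fragments (12.2 to 30.9) and a fold enrichment of 4.04. The Meis1 peak, chr11:19020409-19020923, was the closest to a promoter, 1.8 kb upstream of the start, with 21 fragments (13.0 to 32.1) and a fold enrichment of 3.05, although the acetylation around it was the strongest at any of the genes. The Insm1 peak, chr2:146256371-146256706 in a Ralgapa2 intron 34.6 kb downstream, had 17 fragments (9.90 to 27.2) and a fold enrichment of 3.33. The intervals of the 7 pileups overlapped except for the stronger Barhl1 peak against Insm1's, and only the stronger Barhl1 and the distal Neurod1 peak passed a −log10 q-value of 5, so the other 5 are the ones that a stricter threshold removes.

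**Figure D4:**
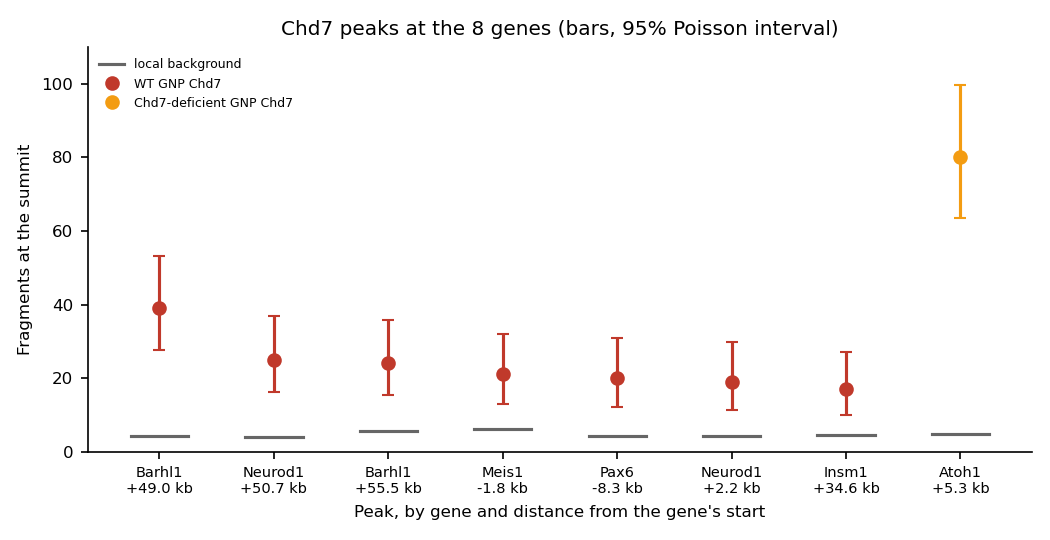
Fragments at the summit of the 8 Chd7 peaks, ordered by height within a genotype and named by gene and distance from the gene's start, with 95% Poisson intervals for counting error. Grey bars are the local background. WT peaks lie between 17 and 39 fragments, and the Atoh1 peak of Chd7-deficient GNPs, the control library, has 80.

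None of the 7 WT Chd7 peaks lay within 1 kb of a protein-coding start. At Pax6, Meis1 and inside Neurod1, 3 of the 7 had the start of one of the 8 genes nearest. The same shares over all WT Chd7 peaks are not given here, so these counts are not set against the library. The 7 Chd7 peaks overlapped 8 H3K27ac peaks, 10.4% of 77 (95% Wilson interval 5.36 to 19.2) against 4.98% over the library. These 8 H3K27ac peaks were tall and wide. Their median fold enrichment was 15.9 and their median width 5286 bp, against 4.13 and 744 bp for the 69 without Chd7. The same direction is seen over the library, where the medians were 10.6 and 1529 bp with Chd7 and 4.25 and 625 bp without. With other gene windows, or only peaks nearest to a start of the genes, the share of 10.4% became 6.12% to 9.62%. Its interval counts peaks as independent, which peaks of 1 gene are not. H3K27ac peaks at the genes were also wider than the library's, median 844 bp against 646 bp, and the part of width in the share was not tested.

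At Atoh1 the Chd7 antibody gave a peak only in Chd7-deficient GNPs. The study ran that library beside the WT one as a control, to tell true Chd7 sites. A peak in it is therefore not read here as Chd7 binding. In Chd7-deficient GNPs 80 fragments (63.4 to 99.6) overlapped the summit at chr6:64733671-64734674, 5.3 kb from the start and 3.2 kb beyond the end of the gene, over a background of 4.70. The fold enrichment of 14.2 was the second highest of 96, and 0.205% of protein-coding genes had a peak of this library by the same rule. Of the 96 peaks 57 lay on chromosomes 1 to 19, X and Y, and 2 overlapped H3K27ac, this one and one 578 bp from a start of Duxf3, a gene of a repeated family. In WT GNPs the nearest Chd7 peak was 3655.3 kb away. The region is acetylated in WT GNPs (fold enrichment 4.13) and carried a Top2b peak in both genotypes. The mice of this library also carry the Atoh1-Cre transgene, so signal from the gene and from the transgene's copy of its enhancer cannot be told apart.

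All 8 genes had Top2b peaks in CGNs of both genotypes, as had 62.2% of protein-coding genes in WT and 71.0% in Chd7-deficient CGNs. In WT CGNs Meis1 had 8, Insm1 5, Meis2 4, Atoh1 and Neurod1 3 each, Barhl1 2, and Pax6 and Neurod2 1 each. In Chd7-deficient CGNs Meis1 had 9, Pax6 6, Barhl1 5, Insm1 4, Atoh1 and Neurod1 3 each, Neurod2 2 and Meis2 1. The largest difference in number was at Pax6, with 1 peak in WT and 6 without Chd7, followed by Barhl1, with 2 and 5, and in the other direction Meis2, with 4 and 1. The whole library of Chd7-deficient CGNs was also larger, 21505 peaks against 17030, and with 1 library per genotype the counts cannot be set against an error.

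Part of the positions recurred in the other genotype. Of the 27 WT peaks 13 (48.1%, 30.7 to 66) overlapped a peak of Chd7-deficient CGNs, against 16.8% of all WT peaks, and 13 of 33 (39.4%, 24.7 to 56.3) the other way, against 13.3%. On GNP H3K27ac lay 17 of the 27 WT peaks against 17.4% of the library and 25 of the 33 peaks of Chd7-deficient CGNs against 26.6%. Within the peaks on H3K27ac, 9 of 17 WT peaks were shared (52.9%, 31.0 to 73.8) against 41.5%, and 9 of 25 (36.0%, 20.2 to 55.5) against 21.6% in Chd7-deficient CGNs, and both of these intervals include the library's share. Off H3K27ac it was 4 of 10 (16.8 to 68.7) against 11.6% and 4 of 8 (21.5 to 78.5) against 10.3%, and neither interval includes the library's share. The shared peaks of both genotypes are the same overlapping pairs counted from either side, so the directions are not separate results. The intervals also count peaks as independent, which peaks of 1 gene are not.

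**Figure D5:**
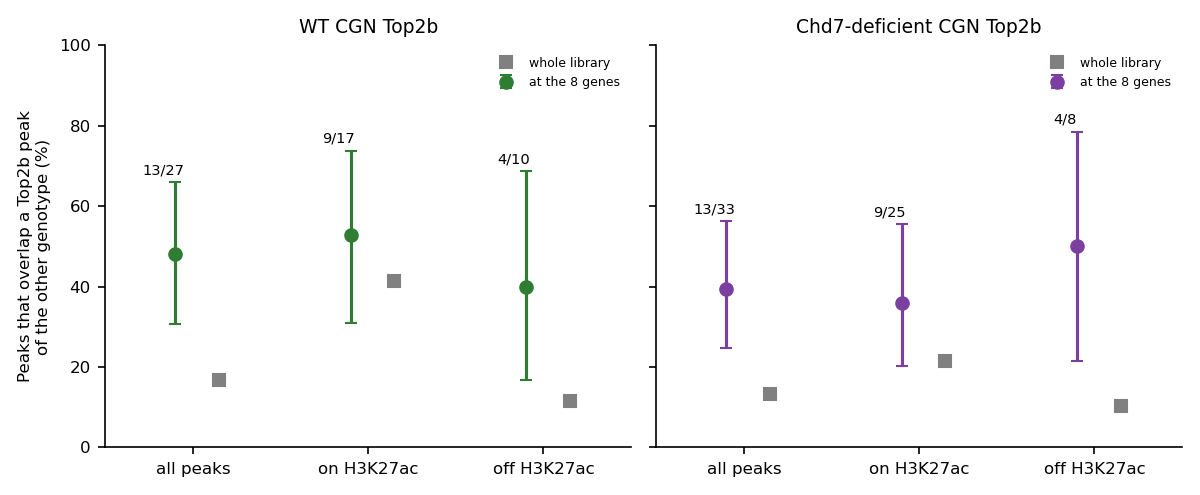
Share of Top2b peaks that overlap a Top2b peak of the other genotype, for peaks at the 8 genes (circles, 95% Wilson intervals, counts above) and for the whole library (grey squares), in all peaks and split by overlap with H3K27ac of WT GNPs. The circles lie above the squares, and for peaks on H3K27ac the intervals include the library's 41.5% and 21.6%, while off H3K27ac they do not include its 11.6% and 10.3%.

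What orders the Top2b tables is not given in the sources used here. In WT 93.4% and in Chd7-deficient CGNs 95.3% of neighbouring lines were on the same chromosome, so the tables run in blocks, and a peak's place in its table went with its recurrence. In WT CGNs 54.3% of the first 10% of lines overlapped a peak of the other genotype and 3.82% of the last 10%, and in Chd7-deficient CGNs 29.7% and 4.14%. Of the peaks at the 8 genes 15 of 27 in WT and 21 of 33 in Chd7-deficient CGNs were in the first 30% of lines. The first line of the Chd7-deficient table is the Atoh1 peak at chr6:64734195-64734594, 5.27 kb from the start and inside the Chd7 peak of Chd7-deficient GNPs, and the WT peak there, chr6:64734301-64734696, is on line 3802. Because the order is not explained, a line number is given here as a place in the table and is not read as strength. Here too the gene and the transgene cannot be told apart.

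Around the starts the genotypes differed in the exact peaks called. The authors called the peaks of each genotype separately, so a peak called in a single genotype is not read as a change in binding. At Meis1 the WT table had peaks at -0.08 and -0.87 kb, both in the first 10% of lines, of which the second was shared. At Neurod1 both tables had the peak in the coding exon, at 2.52 kb in WT and 2.5 kb without Chd7, the WT table alone had another at 1.59 kb, and the Chd7-deficient table alone had one at 0.08 kb. At Pax6 the shared peak lay in an intron 21.52 kb from the start, and the 5 found without Chd7 alone lay from 7.93 kb upstream to 18.66 kb downstream, all on H3K27ac. At Barhl1 the shared peak was in a coding exon at 1.30 kb. The peaks of Chd7-deficient CGNs at 49.02 and 55.64 kb fell on the Barhl1 Chd7 peaks, and the WT Top2b peak closest to them, at 48.45 kb, was near the stronger one without touching it.

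Direct overlap of Chd7 in GNPs with Top2b in WT CGNs was limited to the Neurod1 coding exon, 1 of 7 Chd7 peaks against 16.6% of the library. With Top2b of Chd7-deficient CGNs it was 3 of 7, this exon and both Barhl1 peaks, against 34.2%. The Chd7 and Top2b libraries come from different stages, GNPs and 48 h cultures.

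Meis2 had Top2b peaks alone. Its gene of 202.8 kb had no H3K27ac peak in or within 50 kb, the nearest being 468.8 kb from its start, and the nearest WT Chd7 peak was 910.1 kb away. Its WT Top2b peaks stood at -36.99, 127.73, 209.84 and 242.83 kb, none on H3K27ac, and only the third recurred without Chd7. That recurring peak holds AGGNGGCGC, letters from the core of the consensus of the insulator protein CTCF, which is known to share sites with Top2b. So do the recurring Top2b peak of Chd7-deficient CGNs in a coding exon of Cfap61, the gene upstream of Insm1, whose WT counterpart ends short of the match, and the WT peak in the Pax6 intron at 21.52 kb, whose counterpart without Chd7 also ends short of it. Both peaks of Chd7-deficient CGNs that hold the letters and were not called in WT, in the coding exon of Neurod2 at 2.08 kb and in the Pax6 intron at 18.66 kb, follow them. They are printed with the match in capitals, plus strand of GRCm38.

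Meis2 Top2b, chr2:115855940-115855996: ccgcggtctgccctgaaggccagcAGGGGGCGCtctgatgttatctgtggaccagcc

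Insm1 Top2b, chr2:146214903-146214959: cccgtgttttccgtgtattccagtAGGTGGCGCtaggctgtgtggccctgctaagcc

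Pax6 Top2b, chr2:105690410-105690466: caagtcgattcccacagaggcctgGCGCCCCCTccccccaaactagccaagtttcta

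Neurod2 Top2b, chr11:98327490-98327546: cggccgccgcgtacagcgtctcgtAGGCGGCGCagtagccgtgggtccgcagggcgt

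Pax6 Top2b, chr2:105687722-105687761: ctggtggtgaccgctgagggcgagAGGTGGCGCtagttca

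In windows of 396 bp these letters, on either strand, were in 9.41% of all WT Top2b peaks shared with the other genotype and in 1.96% of those not shared. The shared peaks were also richer in G and C, with a median of 54.5% against 48.7%. On H3K27ac 6.74% of all WT Top2b peaks held the letters, and off it 2.46%. What part base composition or acetylation has in the difference was not tested. At the 8 genes they were in 2 of 13 shared and none of 14 unshared WT peaks. In Chd7-deficient CGNs they were in 2 of 13 shared peaks, against 9.37% of all shared ones, and in 2 of 20 unshared peaks, against 3.08%, so that both shared and unshared peaks held them. This motif was chosen after the peaks had been seen.

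Other factors of the lineage and the paralogs of the 8 genes were counted by the same rules. Of 21 other granule lineage factors 17 had an acetylated start, 11 a WT Chd7 peak and 13 a region past the slope point, with a median of 8 H3K27ac peaks and a range from 1 to 53. The most were at the NFI genes Nfia (53), Nfib (44) and Nfix (42) and at Gli2 (30), a transcription factor of Hedgehog signalling. Nfib had 5 Chd7 peaks and Nfix and Gli2 1 each, while Nfia had none. Of the 14 paralogs 6 had an acetylated start, 1 (Barhl2) a Chd7 peak and none a region past the slope point, with a median of 1.5 H3K27ac peaks, the most at Pax3 (11) and then at Atoh8, Barhl2 and Meis3 with 5 each. Top2b peaks were found at 13 of the 14 paralogs in WT and 11 in Chd7-deficient CGNs, and at 17 and 19 of the 21 other granule lineage factors.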

How the data were processed

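ChIP-seq peak tables were analysed for H3K27ac and Chd7 in P7 GNPs and Top2b in CGNs, 1 library per condition. Input libraries were not analysed here. The authors trimmed reads with Trim Galore, mapped them to mm10 with Bowtie 1.0.0, called GNP peaks with MACS2 and Top2b peaks with HOMER. Which control was used is not given in the sources used here. The pileup the authors deposited is a coverage signal. Other deposited columns are the −log10 p- and q-values and fold enrichment, whose lost decimal points were restored by dividing by 100000. Recomputed −log10 p-values differed by at most 0.00261. The deposited Top2b tables hold positions of fixed width.

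Overlap meant at least 1 bp. Shares have Wilson intervals and Chd7 pileups exact Poisson intervals, both at 95%. Counting steps were tested on simulated data. Every member was named, with other genes only where their start or body is next to a member's Chd7 or Top2b peak, and up to 4 genes per list with the most H3K27ac peaks. Duxf3 and the marker genes named fall outside that rule. Members, lists and motifs were chosen with earlier results of these data known. Sequences came from RefSeq's GRCm38 assembly. Alternatives changed the gene window, peak threshold, overlap and stitching. Analyses ran in Python 3.11.15 with scipy 1.17.1, pandas 2.3.3, numpy 2.4.6, matplotlib 3.10.9 and pysam 0.24.0.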

Additional observations from a re-analysis of the deposited data

How the results depend on the processing

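Of 47 alternatives over 10 results 27 left the value within 1.5 times of the count, or within the interval of the share, and 20 moved it further. With windows from 5 kb upstream to 1 kb downstream the genes held 27 H3K27ac, 2 WT Chd7, 0 Chd7-deficient Chd7, 14 WT Top2b and 20 Chd7-deficient Top2b peaks, and 2 genes had a WT Chd7 peak. With windows of 20 kb there were 49 H3K27ac and 3 WT Chd7 peaks, the latter at 3 genes. Peaks nearest to a member's start numbered 49 for H3K27ac and 3 for WT Chd7, at 3 genes. With the −log10 q-value held at 5 or more, 2 WT Chd7 peaks at 2 genes were left, on 2.6% of the H3K27ac peaks and on 0 WT Top2b peaks. Required to cover 50% of the H3K27ac peak, Chd7 left 0%, by construction, since its peaks are narrower, and 0 Chd7 peaks were covered to 50% by WT Top2b. With a Top2b centre within 1 kb of the summit 3 Chd7 peaks counted. Without H3K27ac peaks within 1 kb of a start 2 genes kept a stitched region past the slope point. The fewer peaks follow from the smaller windows and stricter thresholds themselves. The shared share of WT Top2b peaks stayed between 33.3% and 52.6%. Alternatives for the number of genes with a WT Chd7 peak were added after seeing the data. A threshold on Top2b scores was not run, since the tables analysed hold none. No paired analysis was possible because each condition is 1 library and no result comes from a test, and no replicate could be left out. Chd7 pileups of 17 to 39 fragments limit how finely WT peaks can be ranked.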
